A study of Mus musculus with 6 samples.

Results

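The genes described here are the protein-coding genes of the mouse whose symbol starts with Nduf, which encode most of the nuclear subunits of respiratory complex I and a set of its assembly factors. They were chosen from the deposited count table by symbol and by the protein-coding class of GENCODE M21, and the rule itself uses no measured value. This gave 46 of the 55401 genes in the table. The cells were RAW264.7, an established mouse line that grows like macrophages and is labelled WT. The 3 MoS2 libraries came from cells given molybdenum disulfide (MoS2), a layered metal sulfide, at 6.25 µg/ml, and the 3 PBS libraries from cells given phosphate-buffered saline (PBS). All 6 were otherwise cultured the same way per the labels, in a serum-supplemented medium with antibiotics. The sources used here do not say how long the cells were exposed. Nothing in the labels says that the replicates were separate cultures, and the spread behind each p-value may therefore be a technical one.

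Complex I is the entry point of electrons from NADH into the respiratory chain of the inner mitochondrial membrane. Its peripheral arm, which lies in the matrix, oxidises NADH at a flavin (the N module) and passes electrons along iron-sulfur clusters to ubiquinone (the Q module), and its membrane arm pumps protons. The core subunits carry out the reaction, the accessory subunits surround and stabilise them, and assembly factors build the modules without staying in the finished enzyme. The core subunits of the membrane arm are encoded by mitochondrial DNA, and all the others by the nucleus. In macrophages, complex I is also known as a source of reactive oxygen species when electrons run backwards from ubiquinone.

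Total counts ran from 15767618 to 18412762 in the MoS2 libraries and from 17008020 to 17695883 in the PBS libraries. All 8 macrophage markers looked at (Adgre1, Cd68, Csf1r, Lyz2, Cd14, Ptprc, Itgam and Fcgr3) passed the low-count filter in these libraries. Their summed level, in read counts scaled to library size (CPM), was 5019 to 5259 CPM with MoS2 and 7359 to 7524 CPM with PBS, but single markers moved both ways: 3 rose, 2 fell and 3 were not called, with a median log2 fold change of 0.05. The lower sum came from Lyz2, with a mean of 1976 CPM with MoS2 and 3624 CPM with PBS, and Csf1r, with 513 CPM with MoS2 and 1909 CPM with PBS, while Cd68, Itgam and Fcgr3 rose. None of 12 markers of other cell types passed that filter. Their sum was 1.22 to 1.44 CPM with MoS2 and 0.719 to 0.954 CPM with PBS, and 2 of them were at 0 in every library. Here and below, CPM are scaled with TMM factors. These set the libraries to a common level from a trimmed mean of the genes' log ratios, assuming that most genes do not change. The factors were 0.743 to 0.783 with MoS2 and 1.31 with PBS. Of the genes tested, 80.7% were called, so that assumption may not hold here. In bulk RNA, fewer cells of a type and less RNA per cell cannot be told apart.

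Promoter sequences are given first, as background to the genes. Whether they bear on the change with MoS2 was not tested. RefSeq windows (GRCm38.p6) of 250 bases before and 50 after the annotated start were held for 40 of the 46 genes, in 42 windows, and not for others such as Ndufa2, Ndufaf6, Ndufa4l2, Ndufs1 and Ndufb9. They were searched on both strands for the letters bound by 3 factors known to act on nuclear genes of the respiratory chain. The YY1 letters, AAGATGGCG, were in 6 of the 42 windows, 14.3%, against 1.83% of 21263 windows of protein-coding genes. All 6 matches read along the gene's own strand and began 11 to 36 bases after the start. The letters hold an ATG, and whether it starts the protein was not examined. The strand and place of the matches therefore need not mark a site of the factor. The 6 matches are shown with the motif in capitals and its neighbouring bases in lower case.
Ndufc1 (chr3:51408919-51408945, minus strand): agcctgcggaacAAGATGGCGccgtcc
Ndufa9 (chr6:126849101-126849127, minus strand): gcattgtgggagAAGATGGCGgccgcc
Ndufs7 (chr10:80249461-80249487, plus strand): aaggccgaggccAAGATGGCGgcgctg
Ndufaf8 (chr11:120098932-120098958, plus strand): gaggcagggcccAAGATGGCGgcgccc
Ndufs6 (chr13:73328435-73328461, minus strand): agggtcaccggcAAGATGGCGgcggtg
Ndufs4 (chr13:114388045-114388071, minus strand): tttgcctacaggAAGATGGCGgcggtc

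The NRF-1 letters, written here as GCGCA, any base, then GCGC, were in 10 windows of 9 genes, 23.8% of the windows, against 6.38% of the protein-coding windows. Ndufb4 held 3 such matches. The others lay in Ndufa5, whose 1 match falls in both of its overlapping windows, and in Ndufa8, Ndufaf5, Ndufaf4, Ndufs5, Ndufs6, Ndufa6 and Ndufa11, at positions from 191 bases before to 24 after the start. The ETS letters CCGGAAG, which GABP binds, were in 6 windows (Ndufs3, Ndufs8, Ndufb6, Ndufb7, Ndufaf1 and Ndufaf8), 14.3%, against 11.6%. At least 1 of the 3 motifs was in 20 of the 42 windows, 47.6%, against 17.9% of the protein-coding windows. A match says only that the letters are there. The protein-coding windows, of 17492 genes, were not limited to genes tested here. The 100 bases before the start are printed for Ndufs5, where the NRF-1 match in capitals lies near the upstream end, and for Ndufaf5 and Ndufaf7, the Nduf-named assembly factors with the largest and the smallest log2 fold change, where these 100 bases hold none of the 3 motifs.
Ndufs5 (chr4:123718187-123718286, minus strand): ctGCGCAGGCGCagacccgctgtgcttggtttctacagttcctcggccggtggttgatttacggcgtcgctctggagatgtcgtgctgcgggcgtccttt
Ndufaf5 (chr2:140170546-140170645, plus strand): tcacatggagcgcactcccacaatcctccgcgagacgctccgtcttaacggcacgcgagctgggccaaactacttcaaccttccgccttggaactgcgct
Ndufaf7 (chr17:78937035-78937134, plus strand): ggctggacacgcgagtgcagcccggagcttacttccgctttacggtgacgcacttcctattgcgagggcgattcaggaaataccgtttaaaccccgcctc

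Nearly the whole set was higher in MoS2-treated cells. All 46 genes passed the low-count filter, and with edgeR's quasi-likelihood F test (threshold of 0.05 on the p adjusted by Benjamini-Hochberg over the 12972 genes tested) 43 rose, 2 fell and 1 was not called. Over all genes tested, 80.7% were called in either direction, 38.3% higher and 42.4% lower. The median log2 fold change, MoS2 over PBS, was 1.21 over the 46 genes and -0.08 over all genes tested. Of the 46, 31 rose by a log2 fold change of 1 or more, a size that 19.5% of all genes tested reached. In 43 genes every MoS2 library lay above every PBS library, against 38.8% of all genes tested, and in 2 every MoS2 library lay below, against 43.1%.

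How far they rose depended on what the libraries were scaled to. As a share of all counts in a library, the 46 genes together took 0.295%, 0.284% and 0.308% in MoS2 replicates 1 to 3, against 0.232%, 0.219% and 0.201% in PBS replicates 1 to 3. The 2 groups did not overlap. On the TMM scale their summed level was 3869 ± 261.2 CPM with MoS2 and 1665 ± 122.9 CPM with PBS (SD, n = 3 each). Scaling by library totals alone moved the median of all genes tested by -0.77 on the log2 scale relative to TMM. With it, 31 members rose and 4 fell, against 18.0% of all genes called higher and 67.7% called lower, and the members' median log2 fold change was 0.44, against -0.85 over all genes.

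**Figure D1:**
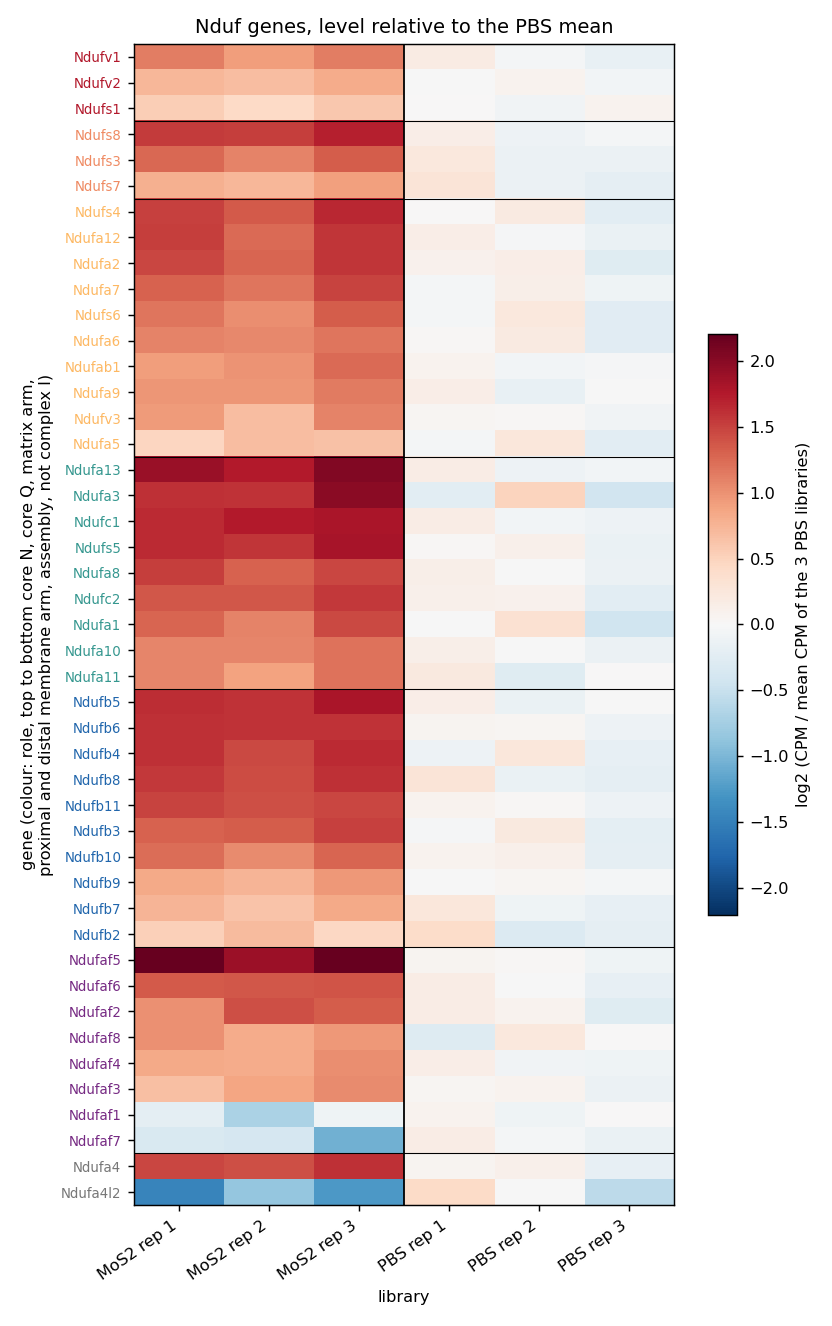
Heat map of 45 of the 46 Nduf genes (rows, by role) in the 3 MoS2 and 3 PBS libraries (columns), as log2 of the CPM over the mean CPM of the 3 PBS libraries, TMM scaling. In 42 rows every MoS2 library is above every PBS library, and Ndufaf7 and Ndufa4l2 show the opposite.

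The 36 subunits of complex I among these genes all rose under TMM scaling, with log2 fold changes from 0.53 to 1.90 and a median of 1.26. The largest adjusted p among them was 0.016 (edgeR), that of Ndufb2. With library totals, 27 of the 36 were called higher and 1, Ndufs1, lower. The 7 nuclear core subunits had a median of 0.87, the 10 accessory subunits of the matrix arm 1.15, the 9 of the proximal membrane arm 1.44 and the 10 of the distal membrane arm 1.42. Differences between these groups of genes were not tested.

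In the N module, Ndufv1, which binds NADH and the flavin (ENSMUSG00000037916.14, GRCm38 chr19:4007384-4012806), had 158, 136 and 158 CPM in the MoS2 libraries, against 81.9, 70.1 and 64.1 CPM in the PBS libraries. Its log2 fold change was 1.06 ± 0.091 (SE, edgeR adjusted p = 9.7e-08). Every MoS2 value was well above the highest PBS value, which was in PBS replicate 1. Ndufv2, its partner with an iron-sulfur cluster, had 86.6, 84.2 and 92.5 CPM with MoS2, against 52.1, 55.2 and 50.1 CPM with PBS. It rose by 0.74 ± 0.071 (edgeR adjusted p = 3e-07), and its log2 fold change was -0.03 and not called with library totals. Ndufs1 (GRCm38 chr1:63143596-63176833), the largest subunit, carries several iron-sulfur clusters. It had 104, 97.3 and 108 CPM with MoS2, against 71.7, 67.7 and 75.0 CPM with PBS, and the groups stood apart. It rose by 0.53 ± 0.069 (edgeR adjusted p = 8.1e-06) under TMM and was called lower, at -0.25, with library totals.

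In the Q module, Ndufs8, which holds the iron-sulfur clusters next to the end of the chain (GRCm38 chr19:3908863-3912774), rose most among the core subunits. It had 232, 228 and 261 CPM with MoS2, against 87.5, 74.0 and 77.1 CPM with PBS, a log2 change of 1.60 ± 0.079 (edgeR adjusted p = 3.5e-10). The lowest MoS2 library was far above the highest PBS library. Ndufs3, a core subunit that stabilises the Q module, had 94.3, 84.0 and 99.1 CPM with MoS2, against 46.4, 36.0 and 35.9 CPM with PBS, and rose by 1.23 ± 0.10 (edgeR adjusted p = 6.5e-08). Ndufs7, which carries the last iron-sulfur cluster before ubiquinone, had 107, 103 and 116 CPM with MoS2, against 75.6, 56.9 and 53.9 CPM with PBS. The PBS values were spread more widely here, with replicate 1 highest, but did not reach the MoS2 values. Ndufs7 rose by 0.81 ± 0.11 (edgeR adjusted p = 9.9e-06) and had 0.03, not called, with library totals.

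**Figure D2:**
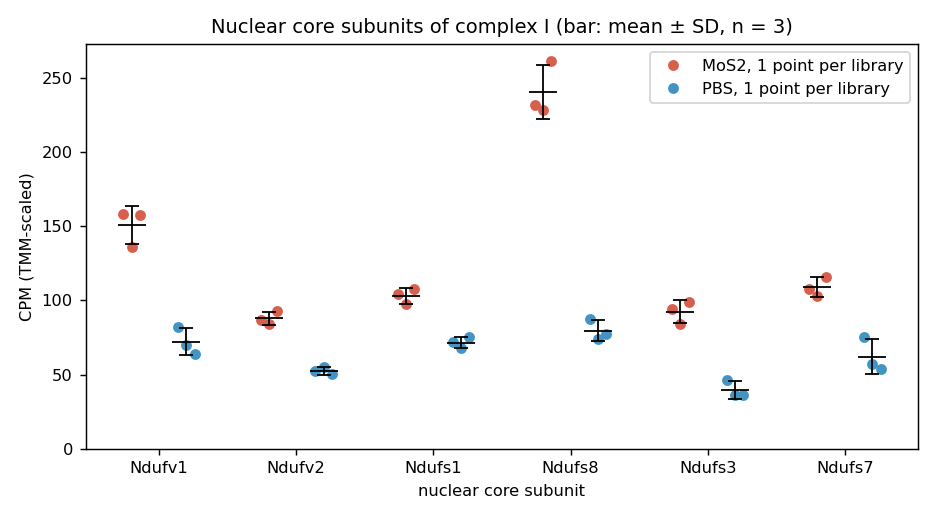
TMM-scaled CPM of 6 of the 7 nuclear core subunits, with 1 point per library (MoS2 left of PBS in each pair), a wide bar at the mean and error bars of 1 SD (n = 3 each). In all 6 the MoS2 points lie above the PBS points, and the gap is widest in proportion for Ndufs8 and narrowest for Ndufs1, whose direction turns round with library totals.

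All 10 accessory subunits of the matrix arm rose, and 8 were called higher with library totals. Ndufs4, whose loss causes a Leigh-like brain disease in mice, had the largest log2 fold change of the group, 1.51 ± 0.11 (edgeR adjusted p = 1.3e-08). It had 86.7, 78.2 and 96.3 CPM with MoS2, against 30.8, 34.9 and 25.9 CPM with PBS, with no overlap. Next came Ndufa12 (1.45), Ndufa2 (1.45), Ndufa7 (1.33), the zinc-binding Ndufs6 (1.19), Ndufa6 (1.11), the acyl carrier protein Ndufab1 (1.06), Ndufa9, which lies beside the Q module (1.04), and Ndufv3 (0.91) on the log2 scale. Ndufv3 was not called with library totals (0.13). Ndufa5, a Q module subunit, rose least, with 26.0, 29.9 and 29.3 CPM in the MoS2 libraries and 18.2, 22.2 and 15.9 CPM in the PBS libraries. Its groups were close but did not overlap, and its log2 fold change was 0.60 ± 0.12 (edgeR adjusted p = 0.0004). That direction turned round to -0.17 with library totals, and to -0.18 with the trend on exon length and GC content removed, and was called in neither.

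The 9 accessory subunits of the proximal membrane arm rose and were also called higher with library totals. Ndufa13, also known as GRIM-19 (GRCm38 chr8:69894180-69902558), had 119, 107.5 and 131 CPM with MoS2, against 35.6, 29.6 and 30.7 CPM with PBS. Its log2 fold change of 1.90 ± 0.092 (edgeR adjusted p = 2.7e-10) was the largest of the 36 subunits, and the MoS2 libraries were all far above the PBS libraries. Ndufa3 (1.73), Ndufc1 (1.73), Ndufs5 (1.68), Ndufa8 (1.44), Ndufc2 (1.43), Ndufa1 (1.28) and Ndufa10 (1.12) followed, of which Ndufs5 and Ndufa8 are cysteine-rich proteins facing the intermembrane space. Ndufa11 rose least, by 1.06 ± 0.12 (edgeR adjusted p = 1.3e-06), with 53.7, 47.3 and 58.4 CPM in the MoS2 libraries and 29.7, 21.2 and 25.6 CPM in the PBS libraries. The MoS2 libraries were again all above the PBS libraries.

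In the distal membrane arm, all 10 accessory subunits rose and 7 were called higher with library totals. Ndufb5 led with 133, 130 and 149 CPM in the MoS2 libraries, against 47.9, 38.9 and 42.6 CPM in the PBS libraries, a log2 change of 1.67 ± 0.086 (edgeR adjusted p = 4.8e-10). There was no overlap. Ndufb6 (1.60), Ndufb4 (1.57), Ndufb8 (1.53), Ndufb11 (1.46), Ndufb3 (1.38), Ndufb10 (1.19), Ndufb9 (0.85) and Ndufb7 (0.74) lay between it and Ndufb2 on the log2 scale. Ndufb9 was not called with library totals (0.08). Ndufb7, a cysteine-rich subunit on the outer face, had -0.03 with library totals, not called. Ndufb2, lowest of the subunits per kilobase of transcript, had 8.15, 9.24 and 7.83 CPM in the MoS2 libraries, against 7.50, 4.65 and 4.94 CPM in the PBS libraries. PBS replicate 1 came close to the lowest MoS2 library without reaching it. The rise of Ndufb2, 0.56 ± 0.19 (edgeR adjusted p = 0.016), was not called without MoS2 replicate 2 (edgeR adjusted p = 0.061), PBS replicate 2 (0.081) or PBS replicate 3 (0.065), and turned round to -0.21, not called, with library totals. Ndufb1-ps, the mouse row that stands for a further distal subunit, is a noncoding gene in M21 and so not one of the 46. It had 21.2 ± 0.648 CPM with MoS2 and 7.54 ± 2.56 CPM with PBS (SD, n = 3 each) and rose by 1.49 ± 0.18 (edgeR adjusted p = 4e-06).

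**Figure D3:**
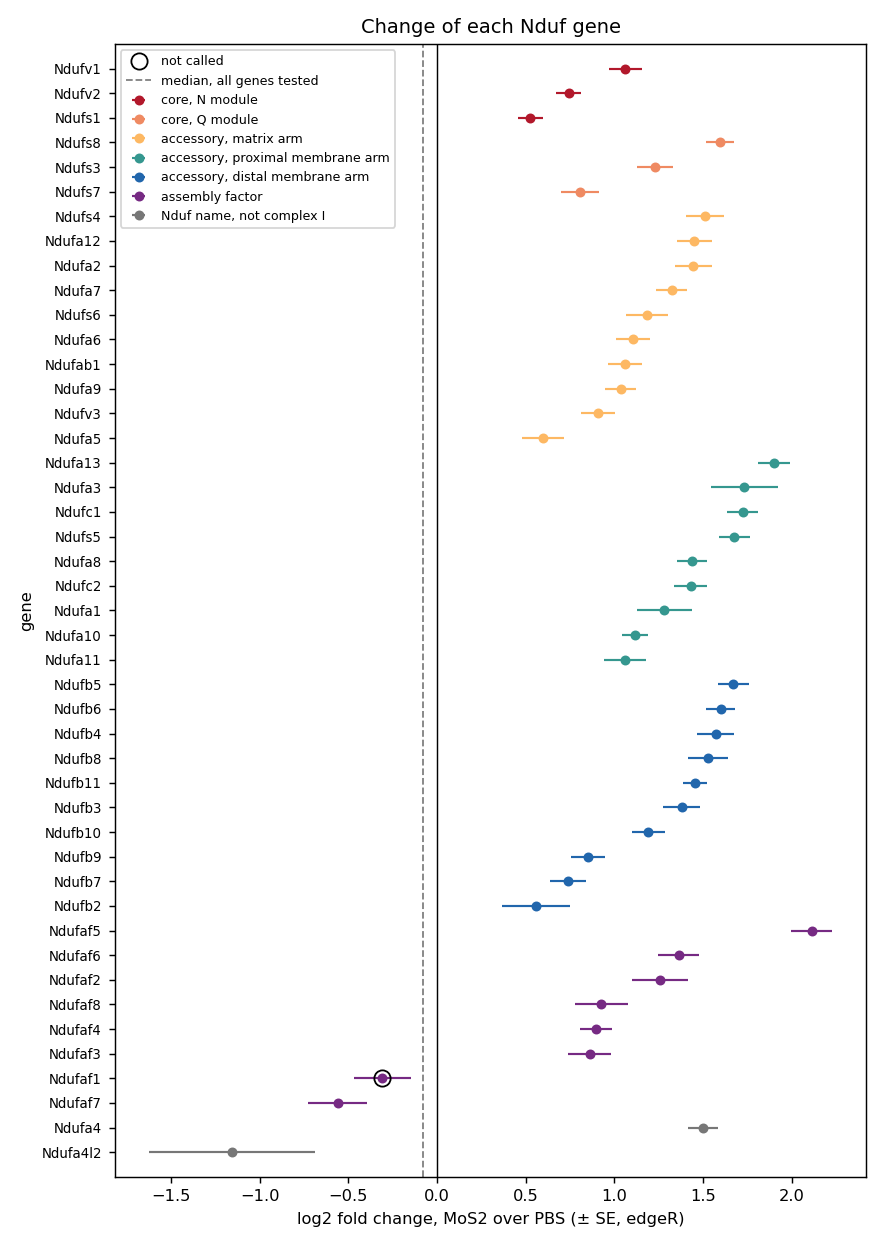
Log2 fold change of 45 of the 46 Nduf genes, MoS2 over PBS under TMM scaling, with ± 1 SE from edgeR, coloured by role, and the median of all genes tested as a dashed line. Under TMM all 35 subunits drawn lie right of 0, while with library totals Ndufv2, Ndufs1, Ndufa5, Ndufb2 and Ndufb7 have values below it, and the genes drawn left of 0 are Ndufaf1 (circled, not called), Ndufaf7 and Ndufa4l2.

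The 8 assembly factors with an Nduf name did not move as one. Under TMM 6 rose, 1 fell and 1 was not called, with log2 fold changes from -0.56 to 2.11 and a median of 0.91. With library totals 3 were called higher and 2 lower. Ndufaf5, which hydroxylates an arginine of Ndufs7 (GRCm38 chr2:140170649-140203689), had 35.8, 28.8 and 36.2 CPM with MoS2, against 8.07, 7.95 and 7.28 CPM with PBS. Its log2 fold change of 2.11 ± 0.12 (edgeR adjusted p = 1e-09) was the largest of all 46 genes, and the PBS libraries were tightly grouped far below the MoS2 libraries. Ndufaf8, which binds and stabilises Ndufaf5, rose by 0.93 (edgeR adjusted p = 6.1e-05) and had 0.15, not called, with library totals. The early factor Ndufaf6 rose by 1.36 and Ndufaf2, a relative of Ndufa12 that acts late in assembly, by 1.26. Ndufaf4 and Ndufaf3, which act together on the Q module, rose by 0.90 and 0.86, and had 0.12 and 0.09, not called, with library totals.

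Ndufaf7 went the other way. It is a methyltransferase of early complex I assembly (GRCm38 chr17:78937136-78948052), and had 11.9, 11.6 and 7.24 CPM with MoS2, against 16.8, 14.6 and 13.7 CPM with PBS. All MoS2 libraries were below all PBS libraries, with MoS2 replicate 3 lowest. Its log2 fold change was -0.56 ± 0.17 (edgeR adjusted p = 0.007). Ndufaf1, a chaperone of the complex that builds the proximal membrane arm, had 8.47, 6.08 and 9.29 CPM with MoS2, against 10.5, 9.25 and 9.89 CPM with PBS. MoS2 replicate 3 lay above PBS replicate 2, so the groups overlapped by a small margin. Its log2 fold change of -0.31 ± 0.16 was not called (edgeR adjusted p = 0.09). It was called lower without MoS2 replicate 3 (-0.43, edgeR adjusted p = 0.037), and also with library totals (-1.08) and with the length and GC trend removed (-0.95).

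Neither of the remaining 2 genes encodes a complex I subunit in spite of its name. Ndufa4 is now known as a subunit of complex IV, cytochrome c oxidase. It had 136.5, 132 and 152 CPM with MoS2, against 51.3, 53.3 and 43.9 CPM with PBS, and rose by 1.50 ± 0.084 (edgeR adjusted p = 1.2e-09) without overlap. Ndufa4l2, a related gene that hypoxia induces (GRCm38 chr10:127514967-127517154), was barely expressed, with 15 counts in all MoS2 libraries and 60 in all PBS libraries. It had 0.319, 0.486 and 0.366 CPM with MoS2, against 1.17, 0.869 and 0.584 CPM with PBS. The groups did not overlap, and its log2 fold change was -1.16 ± 0.47 (edgeR adjusted p = 0.036). That call was lost without MoS2 replicate 1 (0.11), 2 (0.055) or 3 (0.099), and without PBS replicate 1 (0.13) or 2 (0.068), all edgeR adjusted p-values. It was also lost without a low-count filter (edgeR adjusted p = 0.061), with DESeq2 (adjusted p = 0.16) and with limma-voom (adjusted p = 0.063).

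Replicates differed in the same sense across many of the genes. In the MoS2 group, replicate 3 was highest for 36 of the 46 genes and replicate 2 lowest for 32. In the PBS group, replicate 1 was highest for 28 and replicate 3 lowest for 35. These differences were small beside those between the groups in the heat map of levels. Leaving out any 1 library left 42 or 43 members called higher, against 36.0% to 38.0% of all genes. Such counts of replicates were not made over all genes tested. The summed CPM of all genes tested was 1300000, 1277000 and 1345000 in MoS2 replicates 1 to 3. In PBS replicates 1 to 3 it was 766300, 765800 and 763100. Both groups had the same highest and lowest replicates there, but on this scale those sums are set by the TMM factors alone. They therefore cannot show whether the order is particular to the Nduf genes, which was not tested.

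Levels of different genes were set side by side per kilobase of the principal transcript. The 36 subunits had a median of 93.0 CPM per kilobase with MoS2 and 38.3 with PBS, and the 8 assembly factors 16.6 with MoS2 and 8.30 with PBS. Most subunits lay near one another, 27 of 36 with MoS2 and 28 of 36 with PBS within a factor of 2 of the subunit median. Ndufa2 was the highest subunit, at 316.5 CPM per kilobase with MoS2 and 116 with PBS, and Ndufb2 the lowest, at 1.92 with MoS2 and 1.30 with PBS. The order depends on which length is used. Over the 36 subunits, levels per kilobase of transcript and per kilobase of all exons had a Spearman rho of 0.68 with MoS2 and 0.67 with PBS.

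Nduf transcripts are short, and short transcripts tended to be higher with MoS2. The members' median principal transcript was 952.5 bases long, against 2708 over the genes tested, and 43 of 46 were under that median. Across the tested genes, the log2 fold change and this length had a Spearman rho of -0.31, and across the 46 members -0.32, where genes are not independent replicates. With the trend on exon length and GC content removed from each library, 41 members rose and 3 fell, against 40.3% of all genes called higher and 40.1% called lower, and the members' median was 0.74. With the length of the principal transcript in place of the exon length, an alternative chosen after seeing the data, 36 rose and 3 fell, against 39.7% of all genes called higher and 40.2% called lower, and the median was 0.61, against -0.01 over all genes. The 7 core subunits were called higher under both corrections. Ndufa1 lost its call under both (0.08 and 0.09 on the log2 scale), and Ndufs6 (0.22), Ndufa6 (0.08), Ndufb9 (0.11) and Ndufaf2 (0.29) under the second. Under the second, 30 of the 36 subunits were called higher and none lower, and 2 of them, Ndufa5 and Ndufb7, had values below 0 (-0.23 and -0.12).

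**Figure D4:**
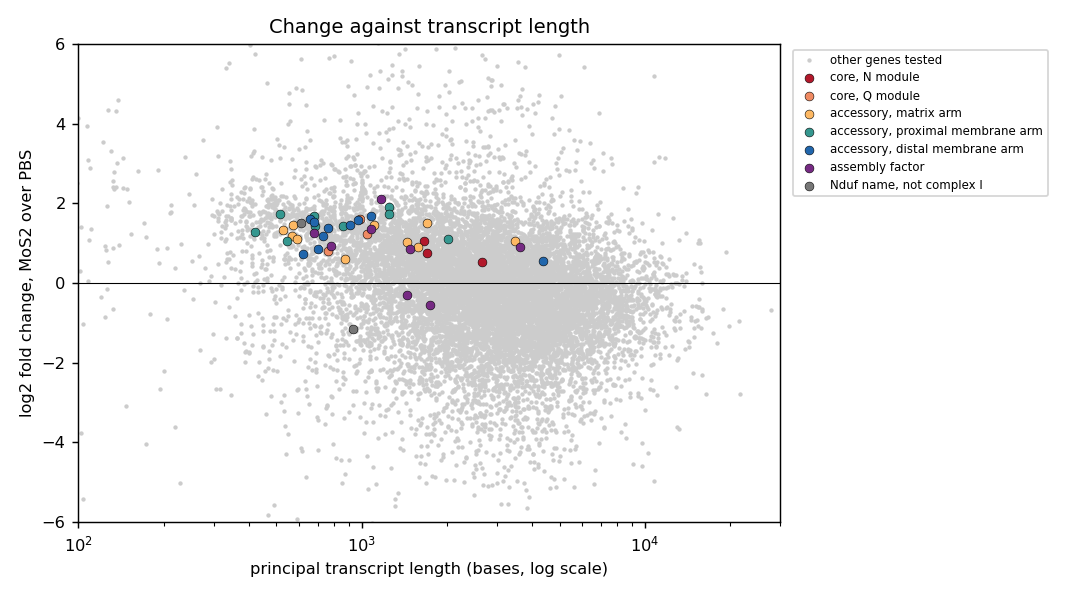
Log2 fold change, MoS2 over PBS under TMM scaling, against the length of the principal transcript (log axis) for 45 of the 46 Nduf genes, coloured by role, and the other genes tested in grey, without 123 genes beyond the axes and 383 with no such length. The members gather at the short end, with a median of 952.5 bases, and mostly above 0.

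**Figure D5:**
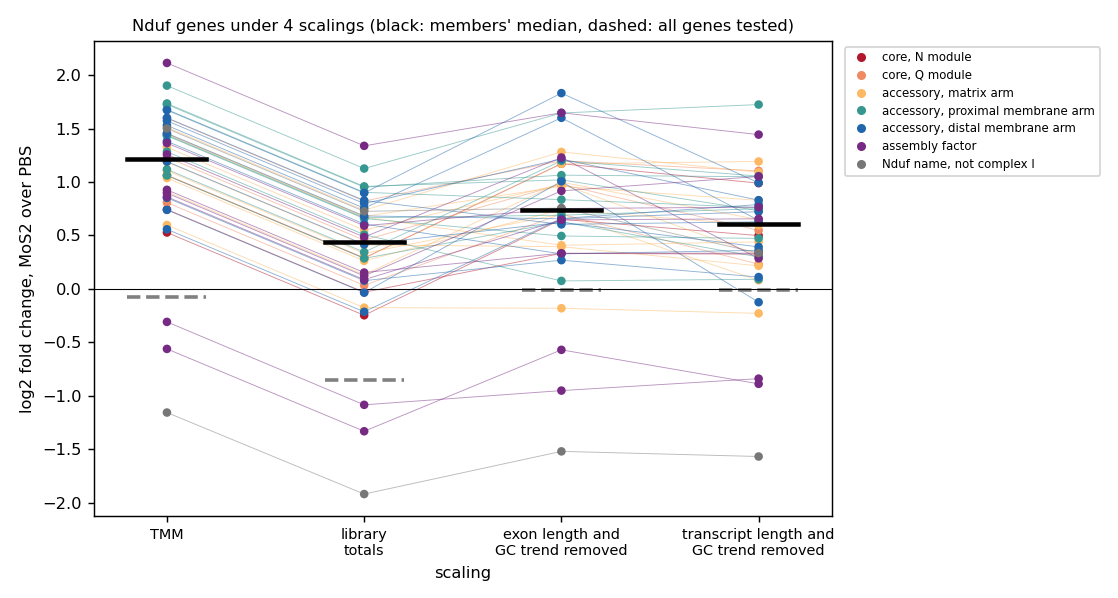
Log2 fold change of 45 of the 46 Nduf genes, MoS2 over PBS, under TMM, library totals, and removal of the trend on GC content with exon length or with transcript length, each line 1 gene coloured by role. The median of all 46 (black bar) is 1.21, 0.44, 0.74 and 0.61 in that order, and the median of all genes tested is dashed.

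Counts of some members may hold reads of other genes or lack some of their own. No source used here says whether counting used strand or how reads with several mapping places were handled. Exons of Ndufaf2 overlapped an opposite-strand gene, B230220B15Rik, over 65.7% of the length, and that gene had 0 counts. Low counts of a neighbour do not show that a member's count is whole, since reads over shared exons may have been counted for neither gene. Smim27 overlapped 39% of Ndufb6 and Tssk6 29.98% of Ndufa13, both on the opposite strand. They had 73 and 268 counts over the 6 libraries, against 3228 for Ndufb6 and 6799 for Ndufa13. Several members overlap a well expressed gene on the opposite strand. Shmt2, with 52801 counts over the 6 libraries, shares 2.92% of Ndufa4l2, which had 75. Impdh2, with 15071 counts, shares 2.65% of Ndufaf3 (1603 counts), Braf, with 5122, shares 2.59% of Ndufb2 (713 counts), and Eef1b2, with 98624, shares 0.111% of Ndufs1 (8860 counts). Rbm10, with 4198 counts, shares 12.9% of Ndufb11 (7991 counts). Mrpl47, with 1855 counts, shares 12.3% of Ndufb5 (8259 counts), and Tmco6, with 2451, shares 11.5% of Ndufa2 (11545 counts). Mrpl36, with 2893 counts, shares 3.34% of Ndufs6 (3273 counts). If counting did not use strand, reads of these neighbours could be part of the members' counts. Reads of the members over shared exons could also be missing from them, so the levels of these members are uncertain in either direction. Further overlaps on the opposite strand are not listed. Gm49356 shares 19.5% of Ndufb9 on the same strand and had 5 counts, so the level of Ndufb9 is uncertain. Also on the same strand, Gm20538 shares 4.26% of Ndufb8 and had 1 count, and Gm42420 shares 2.58% of Ndufb2 and had 0. Close copies (at least 95% identity over at least 50% of the transcript) were found for Ndufb11, Ndufs3 and Ndufs6, and each had at most 7 counts in the MoS2 libraries and at most 4 in the PBS libraries.

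The 7 complex I subunits of the mitochondrial genome, mt-Nd1 to mt-Nd6 and mt-Nd4l, which form the proton-pumping core, were listed at 0 in every library. So were all 37 genes of the mitochondrial chromosome in the table, so the mitochondrial subunits were not measured here and cannot be compared with the nuclear genes.

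The lists of related genes are read against all genes tested, of which 38.3% were called higher and 42.4% lower, or 18.0% higher and 67.7% lower with library totals. Of 14 assembly factors of complex I without an Nduf name, 9 rose (64.3%), 3 fell (21.4%) and 2 were not called, with a median log2 fold change of 0.44. With library totals 2 were higher (14.3%) and 7 lower, and the share called higher was then near that of all genes. Tmem126a, an inner membrane assembly factor, rose by 1.82 (edgeR adjusted p = 3.4e-10), with 56.1 ± 4.84 CPM with MoS2 and 15.9 ± 0.763 CPM with PBS (SD, n = 3 each). Dmac1, which helps to build the distal membrane arm, rose by 1.39 (edgeR adjusted p = 4.7e-09). Tmem186, which works with Ndufaf1, fell to 4.98 ± 0.514 CPM with MoS2, against 20.7 ± 1.41 CPM with PBS, a log2 change of -2.05 (edgeR adjusted p = 4.1e-09). Foxred1, an assembly factor that resembles flavin oxidoreductases, had -0.47 (edgeR adjusted p = 3e-05).

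Of 14 genes that make iron-sulfur clusters, which the N and Q modules need, 6 rose (42.9%), 3 fell (21.4%) and 5 were not called, with a median of 0.14. With library totals 2 were higher (14.3%) and 9 lower (64.3%). The share called higher, and with library totals the share called lower too, was near that of all genes. Bola3, which acts in the delivery of clusters to respiratory enzymes, rose by 1.43 (edgeR adjusted p = 1e-08). Iba57, which acts in the making of such clusters in mitochondria, fell to 0.389 ± 0.239 CPM with MoS2, against 7.68 ± 1.05 CPM with PBS (SD, n = 3 each, edgeR adjusted p = 2e-08). Nfu1, a cluster carrier, had a log2 change of -0.64 (edgeR adjusted p = 2.8e-05).

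Complex I shares ubiquinone with other enzymes that reduce it. Of 8 genes of that kind, 6 rose (75.0%) and 2 were not called, with a median of 0.65, or 3 higher (37.5%) and 4 lower with library totals. Sqor, which oxidises sulfide, rose by 1.94 (edgeR adjusted p = 3.6e-11), and was at 79.0 ± 3.07 CPM with MoS2 and 20.5 ± 0.804 CPM with PBS (SD, n = 3 each). Within complex II, the iron-sulfur subunit Sdhb and the membrane anchor Sdhd rose by 1.35 and 1.16, whereas the flavoprotein Sdha had a log2 fold change of 0.04 and was not called (edgeR adjusted p = 0.52). Of 13 genes for making ubiquinone, 8 rose (61.5%), 4 fell (30.8%) and 1 was not called, with a median of 0.58, or 1 higher (7.69%) and 6 lower (46.2%) with library totals. Among them the lipid-binding Coq9 rose by 0.95 (edgeR adjusted p = 3.2e-08) and the atypical kinase Coq8a had -3.12 (edgeR adjusted p = 1.5e-08).

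The nuclear subunits of complexes III to V, with cytochrome c, also rose throughout under TMM. All 36 tested were called higher, with a median log2 fold change of 1.54, or 33 higher and 1 lower with library totals, and their median was 0.78 with the transcript length and GC trend removed. Atp5b, a catalytic subunit of ATP synthase, rose by 1.59 and Atp5c1, part of its rotor, by 1.64 (edgeR adjusted p = 3.3e-11 and 3.6e-11). A difference between these genes and complex I was not tested.

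Regulators of respiratory genes, nuclear or mitochondrial, were called in shares near those of all genes under TMM. The list includes the factors behind the promoter motifs, and Tfam, which acts on mitochondrial DNA. Of 7 tested, 3 rose (42.9%), 3 fell (42.9%) and 1 was not called. With library totals 0 were higher and all 7 lower, against 67.7% of all genes lower. Nrf1, which binds the NRF-1 letters, had 37.1 ± 0.966 CPM with MoS2 and 29.5 ± 0.574 CPM with PBS (SD, n = 3 each), a log2 change of 0.33 (edgeR adjusted p = 0.0013). Gabpb1, a subunit of GABP, rose by 0.35 (edgeR adjusted p = 0.0018), and its partner Gabpa was not called (edgeR adjusted p = 0.98). Yy1, whose letters were searched above, was called higher by a small margin, at 0.18 (edgeR adjusted p = 0.037), and its groups overlapped. Tfam, which packages and transcribes mitochondrial DNA, fell to 17.0 ± 0.399 CPM with MoS2, against 55.5 ± 2.93 CPM with PBS, a log2 change of -1.71 (edgeR adjusted p = 3e-10). Pprc1, a coactivator of NRF-1, had -1.21 (edgeR adjusted p = 4.1e-09).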

How the data were processed

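RNA from 6 RAW264.7 libraries was extracted with TRIzol and sequenced as paired ends on an Illumina NovaSeq instrument, per the labels' protocols. The submitters' processing notes name featureCounts 1.6.1 beside the aligner HISAT2 2.1.0 and the read trimmer fastp 0.20.0. What the authors deposited is a table of raw read counts, whole numbers with no normalization, and an exon length for each gene. The notes name the human build GRCh38, but the identifiers are mouse. Of 55401, 54349 match GENCODE M21 on GRCm38 in version and coordinates. Columns carry a letter and number and were matched to samples by these.

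Counts were fitted in edgeR 4.0.16 (with limma 3.58.1 under R 4.3.3) and compared by its quasi-likelihood F test, with TMM factors, edgeR's default low-count filter and treatment as the only term, with Benjamini-Hochberg adjustment over 12972 genes. Levels are TMM-scaled CPM. The SE is the log2 fold change over the square root of F, and approximate. Length and GC trends were removed by spline offsets with 5 degrees of freedom, and the principal transcript length was known for 97.05% of tested genes. The fit was also run on simulated counts in which few genes changed, equally up and down. In these data 80.7% of the genes tested were called, so that run does not test the fit under so broad a change. Members, gene lists, motifs and tests were chosen with earlier results of these data known. Counts include 1 member whose own values are not reported here. Values per library are given for the other core subunits, the largest and smallest change in each role group, and members that fell or were not called. From the lists of related genes, the called genes named are among those with the smallest adjusted p in each direction, and not all of these were named. Sdha, Gabpa and Yy1 were named besides, as partners of named genes or for a motif. No entry was matched for Coa1 and Esrra. Alternatives also included RLE and upper-quartile factors, other filters, DESeq2 1.42.0, limma-voom, protein-coding genes alone, a fold of 1.2, an adjusted p under 0.01, a replicate block and leaving out each library.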

Additional observations from a re-analysis of the deposited data

How the results depend on the processing

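The number of members called higher stayed within 1.5 times 43 under every alternative run, from 31 with library totals to 43. It was 42 to 43 with 1 library left out. Over all genes, the share called higher ran from 18.0% with library totals to 40.3% with the length and GC trend removed. The share called lower ran from 24.9% with no low-count filter to 67.7% with library totals. With 1 library left out, these shares were 36.0% to 38.0% and 39.6% to 41.7%. Shares at an adjusted p under 0.01 were not counted. The number called lower, 2 by the main test, was 4 with library totals and 3 with each of the length and GC corrections. It was 1 each with DESeq2, limma-voom and an adjusted p under 0.01, and 1 to 2 with 1 library left out. It was also 1 with a filter of 1 CPM in 3 libraries, where Ndufa4l2 did not pass and was not tested. Ndufaf1 was also called lower with upper-quartile factors (-0.44, edgeR adjusted p = 0.021) and with no low-count filter (-0.39, edgeR adjusted p = 0.027). The same held with the length trend alone removed (-0.77, edgeR adjusted p = 0.00023). The median log2 fold change of 1.21 was 1.08 with upper-quartile factors, 0.44 with library totals, 0.78 with the length trend removed, 0.74 with the length and GC trend removed, 0.61 with the principal transcript length and GC trend removed, and 1.09 to 1.26 with 1 library left out.

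With library totals the sign turned for Ndufs1 (-0.25), Ndufa5 (-0.17), Ndufb2 (-0.21), Ndufb7 (-0.035) and Ndufv2 (-0.030). For Ndufa5 it also turned with the length trend removed (-0.093), with length and GC (-0.18) and with principal transcript length and GC (-0.23), and for Ndufb7 with the last (-0.12). The cause was not tested. Of 919 values of single members under alternatives, 872 kept direction and side of the threshold, 31 lost the call, 7 gained it and 9 turned, and 28 of 46 members kept both under all alternatives run.

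The labels do not say whether replicate numbers pair the samples. Deviations of same-numbered libraries correlated at -0.02, -0.01 and -0.14, and 0 of 6 libraries correlated best with their own number. These values show no shared effect of the number, but with so few libraries they cannot decide whether samples were paired. With a replicate block, 43 members were called higher and 1 lower, against 37.4% of all genes called higher and 41.3% called lower. Ndufa4l2 (-1.12, edgeR adjusted p = 0.084) lost its call. Ndufa4l2, with 15 counts with MoS2 and 60 with PBS, is limited by depth.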
